A study of Mus musculus with 8 samples.

Results

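Imprinted genes are transcribed mainly from the allele inherited from only 1 parent. The account below follows 40 of them, listed by symbol, in mouse prefrontal cortex. Of the 40, 39 had a row among the 25048 genes tested, and Rian was not analysed here. By textbook knowledge of the mouse, 19 of the 39 are expressed from the paternal allele and 16 from the maternal allele. For the other 4 (Gnas, Blcap, Inpp5f and Ddc) both alleles or either allele may be used, by isoform or tissue. The class of Grb10 (paternal, as in neurons), of Ube3a (maternal, as in neurons) and of Copg2, Igf2r and Kcnq1 (maternal) also depends on tissue or isoform. The classes of the remaining genes were assigned without regard to tissue. Each of the 39 was represented by 1 transcript cluster, a set of probes along the gene.

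The arrays came from 4 mice labelled Mll1 Ko and 4 labelled wild-type. All 8 were males aged 12 weeks that had lived alone in a cage for 1 week, and total RNA was taken from the cingulate part of the prefrontal cortex at rest. The series title places the loss of Kmt2a in neurons, but the driver of the deletion, the deleted exons and the strain are not given in the sources used here. The values were the authors' log2 signals made with RMA, so a difference of 1 is a doubling, and differences are given as Mll1 Ko minus wild-type.

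Imprinted genes lie in clusters, and each cluster is governed by a control region whose DNA is methylated on the allele from only 1 parent. The unmethylated allele carries histone H3 methylated at lysine 4, and the methylated allele does not. Kmt2a, formerly Mll1, is an enzyme that methylates this lysine, and its CXXC domain binds unmethylated CG dinucleotides. Many imprinted genes act on growth, metabolism and behaviour, and in the brain several are most active in neurons of the hypothalamus.

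Kmt2a itself (transcript cluster 10592942) gave 10.42, 10.38, 10.29 and 10.30 on the arrays labelled Mll1 Ko, against 9.94, 10.13, 10.12 and 10.06 on the wild-type arrays. Its signal was therefore higher, not lower, on every array labelled Mll1 Ko, by 0.285 ± 0.0565 log2 (SE, limma adjusted p = 0.014). When wild-type arrays 1 and 4 were removed together, the difference of 0.222 missed the threshold (adjusted p = 0.0589). The cluster may lie outside the deleted part, so it does not check the labels, and every direction below rests on them. Array medians were 7.99 to 8.0 in Mll1 Ko and 8.04 to 8.08 in wild-type, and lower quartiles were 6.80 to 6.83 in Mll1 Ko and 6.89 to 6.94 in wild-type. The groups were apart on the leading principal component (42.8% of the variance), with the Mll1 Ko arrays at 9.52 to 14.0, wild-type array 1 at -20.84 and the other wild-type arrays at -8.49 to -7.86. Wild-type array 4 was alone on the next component, at 19.93.

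Promoter sequences from RefSeq (build GRCm38.p6) are shown for 5 imprinted genes whose signal differed between the groups, because Kmt2a is recruited through unmethylated CG dinucleotides. Each window runs from 250 bases before to 50 bases after an annotated start, all lie on the plus strand, and capitals mark every CG. The windows are chr2:157559828-157560127 for Nnat, chr7:62348027-62348326 for Ndn, chr7:6730333-6730632 for Usp29, chr9:89909525-89909824 for Rasgrf1 and chr7:143473539-143473838 for Slc22a18.
Nnat: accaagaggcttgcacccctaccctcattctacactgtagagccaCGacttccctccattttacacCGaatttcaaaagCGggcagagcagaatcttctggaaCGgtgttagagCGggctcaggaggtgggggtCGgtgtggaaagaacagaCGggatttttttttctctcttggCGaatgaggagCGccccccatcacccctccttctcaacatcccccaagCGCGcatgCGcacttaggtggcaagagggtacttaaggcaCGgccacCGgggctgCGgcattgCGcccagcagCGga
Ndn: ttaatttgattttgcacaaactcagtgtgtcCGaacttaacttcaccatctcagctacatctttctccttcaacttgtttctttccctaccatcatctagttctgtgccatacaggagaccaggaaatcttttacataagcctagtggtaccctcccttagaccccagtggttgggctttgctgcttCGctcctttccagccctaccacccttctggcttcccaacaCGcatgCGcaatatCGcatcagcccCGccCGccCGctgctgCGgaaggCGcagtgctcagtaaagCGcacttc
Usp29: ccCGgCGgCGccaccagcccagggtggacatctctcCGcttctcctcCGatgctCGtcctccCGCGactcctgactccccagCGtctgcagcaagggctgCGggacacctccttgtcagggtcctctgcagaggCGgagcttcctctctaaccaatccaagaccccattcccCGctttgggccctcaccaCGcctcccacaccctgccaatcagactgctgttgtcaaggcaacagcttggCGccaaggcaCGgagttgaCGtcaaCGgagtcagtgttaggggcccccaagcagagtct
Rasgrf1: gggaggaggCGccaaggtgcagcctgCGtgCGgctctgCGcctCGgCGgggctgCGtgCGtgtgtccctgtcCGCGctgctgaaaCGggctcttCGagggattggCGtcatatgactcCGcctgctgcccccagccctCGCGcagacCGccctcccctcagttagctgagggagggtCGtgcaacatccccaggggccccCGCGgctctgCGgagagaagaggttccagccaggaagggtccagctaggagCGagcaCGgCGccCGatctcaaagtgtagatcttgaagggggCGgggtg
Slc22a18: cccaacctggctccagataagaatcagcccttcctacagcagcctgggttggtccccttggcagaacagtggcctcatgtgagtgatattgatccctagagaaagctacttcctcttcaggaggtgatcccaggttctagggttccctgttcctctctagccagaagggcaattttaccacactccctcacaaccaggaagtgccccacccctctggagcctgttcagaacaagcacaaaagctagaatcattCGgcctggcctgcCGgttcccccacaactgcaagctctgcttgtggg
These hold 17, 11, 17, 26 and 2 CG dinucleotides in that order. The 4 promoters of genes that were higher on the Mll1 Ko arrays hold more CG than the promoter of Slc22a18, which was lower. Only 14.1% of all windows hold fewer CG than the Slc22a18 window, and H19, which was also lower, had no window. These counts therefore do not relate CG content to direction. Grb10 had a pair of annotated windows, with 45 and 9. Of the 39 genes, 32 had at least 1 promoter in the table, and their 50 windows held a median of 14.5 CG, beside 7 over all 32851 windows. Some genes have several windows, a few of which overlap, and the background was not matched by signal. The medians are therefore a description only. CG occurs in 94.6% of all windows, so its presence alone sets no promoter apart. DNA methylation and Kmt2a binding were not measured in these samples.

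Of the 39 imprinted genes, 5 rose and 2 fell on the Mll1 Ko arrays (limma, adjusted p under 0.05 over all 25048 genes). The 5 that rose were Nnat, Ndn, Usp29, Grb10 and Rasgrf1, all of them classed as paternally expressed, Grb10 so by its use in neurons. The 2 that fell were H19 and Slc22a18, both classed as maternally expressed. The classes were assigned with earlier results of these data known, so this split is not independent evidence. As shares, 12.8% of the imprinted genes rose and 5.13% fell, where the background over all genes was 5.25% higher and 5.72% lower. The values of the groups did not overlap for 5 imprinted genes that were higher in Mll1 Ko (12.8%, background 9.58%) and 2 that were lower (5.13%, background 10.2%). Counted in either direction, 17.9% of the imprinted genes were called where 11.0% of all genes were, and 7 of 39 had groups without overlap where 19.8% of all genes did. A share this close to the background says nothing of imprinted genes as a class, so the results below are those of single genes. The count of rises was between 1 and 6 when each array in turn was left out: 1 without Mll1 Ko array 3, 2 without Mll1 Ko array 1 or 2 or wild-type array 1 or 2, and 3 without Mll1 Ko array 4. The count of falls was 0 without Mll1 Ko array 1, 2 or 3 or wild-type array 1, 1 without Mll1 Ko array 4 or wild-type array 2 or 3, and 3 without wild-type array 4.

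**Figure D1:**
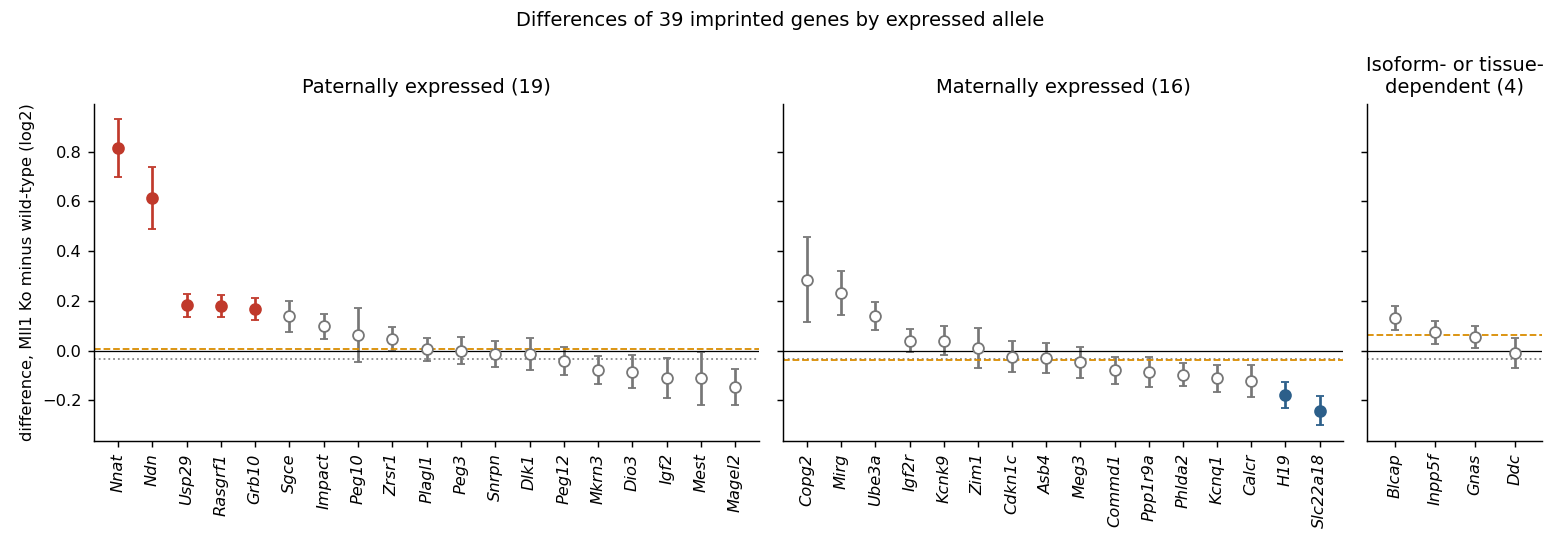
Difference in signal (Mll1 Ko minus wild-type, log2) of each of the 39 imprinted genes, ordered within 3 classes of expressed allele; points are estimates and bars are ± 1 SE from limma, filled where the gene passed the threshold. The dashed line is the median of the class, the dotted line the median of all genes tested (-0.0325), and Nnat and Ndn stand far above all other members.

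Nnat and Ndn changed the most. Nnat encodes neuronatin, a small proteolipid of the endoplasmic reticulum that is abundant in developing neurons and affects calcium handling. Its signal was 10.98, 11.22, 11.13 and 11.65 on the Mll1 Ko arrays, against 10.54, 10.33, 10.38 and 10.47 on the wild-type arrays. Every Mll1 Ko array lay above every wild-type array, and Mll1 Ko array 4 was the highest. The means were 11.24 ± 0.29 in Mll1 Ko and 10.43 ± 0.09 in wild-type (SD, n = 4 and 4). That is a 1.76-fold higher signal, or 0.815 ± 0.117 log2 (SE, limma, adjusted p = 0.0031). An exact two-sided permutation test over the 8 arrays gave p = 0.0286, the smallest that 4 against 4 allows. Nnat passed in 20 of 20 other settings, with differences of 0.68 to 0.903.

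Ndn encodes necdin, a MAGE family protein that restrains cell division and supports the survival of neurons, and it lies in the mouse region that matches the human Prader-Willi interval. Its signal was 11.70, 12.22, 12.20 and 12.29 on the Mll1 Ko arrays, against 11.45, 11.47, 11.30 and 11.74 on the wild-type arrays. The groups overlapped, since Mll1 Ko array 1 lay just under wild-type array 4, while the other 3 Mll1 Ko arrays lay above all wild-type arrays. The means were 12.10 ± 0.27 in Mll1 Ko and 11.49 ± 0.18 in wild-type (SD, n = 4 and 4). Ndn rose 1.53-fold, by 0.613 ± 0.125 log2 (SE, limma, adjusted p = 0.0157). The exact two-sided permutation test gave p = 0.0571. Without Mll1 Ko array 3 the difference was 0.58 and did not pass (adjusted p = 0.0517), and Ndn also missed the threshold with adjustment over all clusters (0.0544) and in an unmoderated test per gene (0.0878).

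**Figure D2:**
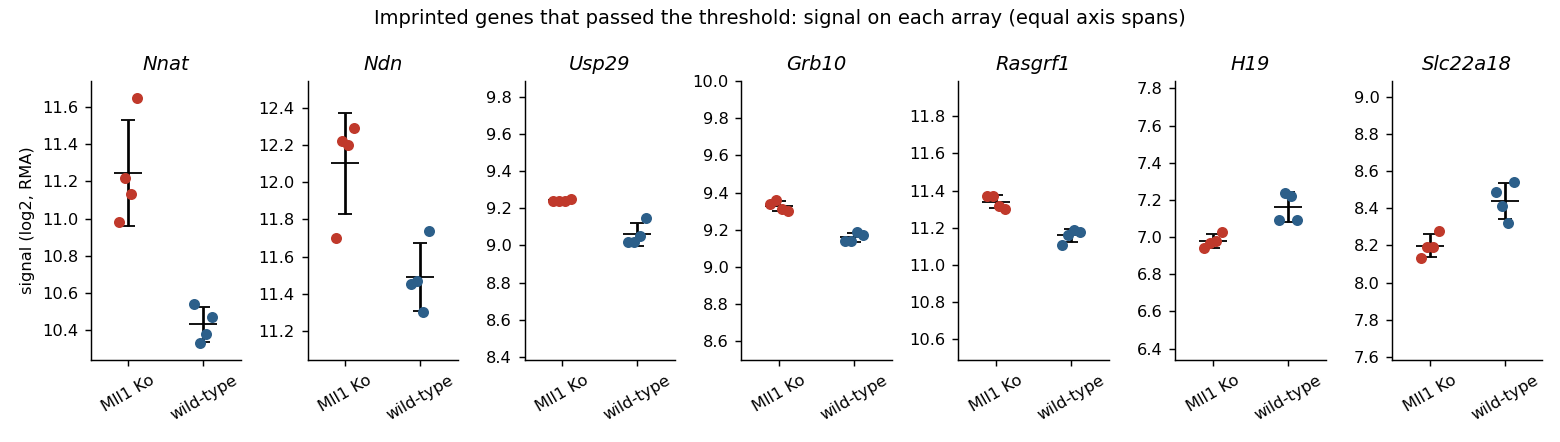
Signal (RMA, log2) of the 7 imprinted genes that passed the threshold on each of the 4 Mll1 Ko and 4 wild-type arrays, with the group mean and ± 1 SD; the axes of all panels span the same number of log2 units. The groups are far apart for Nnat, overlap at 1 array each for Ndn, and are separate but close for the other 5 genes.

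The other 3 rises were small and even. Usp29, a member of the ubiquitin-specific protease family, gave 9.24, 9.24, 9.24 and 9.25 on the Mll1 Ko arrays, against 9.02, 9.02, 9.05 and 9.15 on the wild-type arrays. Grb10, an adaptor that dampens insulin and growth factor receptor signalling, gave 9.34, 9.36, 9.31 and 9.30 on the Mll1 Ko arrays, against 9.14, 9.14, 9.19 and 9.17 on the wild-type arrays. Rasgrf1, a calcium-activated exchange factor for Ras in neurons, gave 11.37, 11.37, 11.32 and 11.30 on the Mll1 Ko arrays, against 11.11, 11.16, 11.19 and 11.18 on the wild-type arrays. In all 3 genes every Mll1 Ko array lay above every wild-type array. Usp29 differed by 0.183 ± 0.0468 log2 (SE), or 1.13-fold (limma, adjusted p = 0.0335). Grb10 differed by 0.168 ± 0.0432, or 1.12-fold (limma, adjusted p = 0.0339), and Rasgrf1 by 0.18 ± 0.0449, or 1.13-fold (limma, adjusted p = 0.0311). These calls were lost when most of the single arrays were left out, while the differences moved little. With 1 array left out they were 0.169 to 0.212 for Usp29, 0.157 to 0.178 for Grb10 and 0.163 to 0.193 for Rasgrf1. Usp29 passed without wild-type array 4 (adjusted p = 0.0163) and with no other array left out (0.0566 to 0.0847). Grb10 passed without wild-type array 3 (0.0462) or 4 (0.0354) and otherwise had 0.0518 to 0.0913. Rasgrf1 passed without Mll1 Ko array 4 (0.0451) or wild-type array 3 (0.0432) or 4 (0.031) and otherwise had 0.0627 to 0.0821.

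The 2 falls were of similar size. H19 is a long noncoding RNA, transcribed from the maternal chromosome, whose gene lies near Igf2. It gave 6.94, 6.97, 6.98 and 7.03 on the Mll1 Ko arrays, against 7.09, 7.24, 7.22 and 7.09 on the wild-type arrays. All Mll1 Ko arrays lay below all wild-type arrays, although the whole range lay close to the lower quartile of the arrays, where signal was not tested against background. H19 fell by 0.18 ± 0.0522 log2 (SE, limma, adjusted p = 0.0481), to 0.883 of the wild-type signal. Slc22a18, a transporter-like membrane protein, gave 8.13, 8.19, 8.19 and 8.28 on the Mll1 Ko arrays, against 8.49, 8.41, 8.32 and 8.54 on the wild-type arrays. It too was lower on every Mll1 Ko array, by -0.242 ± 0.0582 (limma, adjusted p = 0.0273), which is 0.845 of the wild-type signal. H19 passed without wild-type array 4 (0.034) and with no other array left out (0.0562 to 0.111). Slc22a18 passed without Mll1 Ko array 4 (0.0341) or wild-type array 2 (0.0498), 3 (0.0226) or 4 (0.0392), and had 0.066 to 0.0749 without any other array.

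In the loci that hold the changed genes, the other imprinted genes did not pass. In the region of Ndn, the paternally expressed Magel2 (a regulator of endosomal protein recycling) differed by -0.148 ± 0.0722 log2 (SE, limma, adjusted p = 0.175), with a mean of 7.97 ± 0.08 in Mll1 Ko and 8.12 ± 0.14 in wild-type (SD, n = 4 and 4). Mkrn3, a RING finger protein, differed by -0.0775, Peg12 by -0.0425 and Snrpn, a component of the splicing machinery, by -0.015. Magel2 passed as lower only when wild-type array 4 was left out, at -0.211 with an adjusted p of 0.045. Ube3a, the ubiquitin ligase that neurons express from the maternal allele and that is lost in Angelman syndrome, differed by 0.14 ± 0.0564 (adjusted p = 0.113). Ndn was thus the member of this region that passed, out of 6 measured.

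The same held at the loci of Nnat, Usp29 and Slc22a18. Nnat lies inside an intron of Blcap, an apoptosis-related gene. Blcap gave 9.48, 9.57, 9.56 and 9.49 on the Mll1 Ko arrays, against 9.37, 9.42, 9.45 and 9.33 on the wild-type arrays, so its groups did not overlap either. Its difference of 0.133 ± 0.0484 did not pass (limma, adjusted p = 0.0893). Peg3, a zinc finger protein known for its effects on maternal care, shares a bidirectional promoter with Usp29, and their 300-base windows overlap by 263 bases on opposite strands. Peg3 averaged 11.18 ± 0.07 in Mll1 Ko and 11.18 ± 0.07 in wild-type (SD, n = 4 and 4), a difference of 0.00 ± 0.0539, and Zim1, the maternally expressed zinc finger gene next to it, differed by 0.01. Around Slc22a18, the placental growth regulator Phlda2 differed by -0.0975 ± 0.0466 (limma, adjusted p = 0.166), the potassium channel gene Kcnq1 by -0.113 ± 0.0541 (0.168) and the cyclin-dependent kinase inhibitor gene Cdkn1c by -0.025. In the adjoining domain of H19, Igf2, a fetal growth factor gene classed here as paternally expressed, differed by -0.11. For Igf2, Mll1 Ko array 4 was the lowest at 8.82, beside 9.11 to 9.25 on the other Mll1 Ko arrays and 9.13 to 9.24 on the wild-type arrays. Ddc, which makes dopamine and serotonin from their precursors and lies beside Grb10, differed by -0.01.

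Of the 7 changed genes, 6 were also set against a neighbouring imprinted gene directly, and Rasgrf1 has none among the genes listed. The measure was the difference between the genes on each array, compared between the groups. These 6 pairs were chosen after the calls were known, so the p-values are not independent evidence. Nor do they measure the size of a gap. Nnat minus Blcap was 0.682 ± 0.165 log2 larger in Mll1 Ko than in wild-type (SE, exact permutation p = 0.0286, 0.0857 after Benjamini-Hochberg over 6 pairs). Ndn minus Magel2 was 0.76 ± 0.205 larger (exact p = 0.0571, adjusted 0.0857). Slc22a18 minus Phlda2 differed by -0.145 ± 0.0357 (exact p = 0.0286, adjusted 0.0857), with no overlap between the groups. Usp29 minus Peg3 was 0.183 ± 0.0647 larger (exact p = 0.0571, adjusted 0.0857) and Grb10 minus Ddc 0.178 ± 0.0693 larger (exact p = 0.0857, adjusted 0.103). H19 minus Igf2 differed by -0.07 ± 0.115 (exact p = 0.6). None of the 6 passed after adjustment, which this design allows only where at least 4 of the 6 pairs reach the smallest p of 0.0286. The adjusted values therefore do not show that neighbours changed alike.

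**Figure D3:**
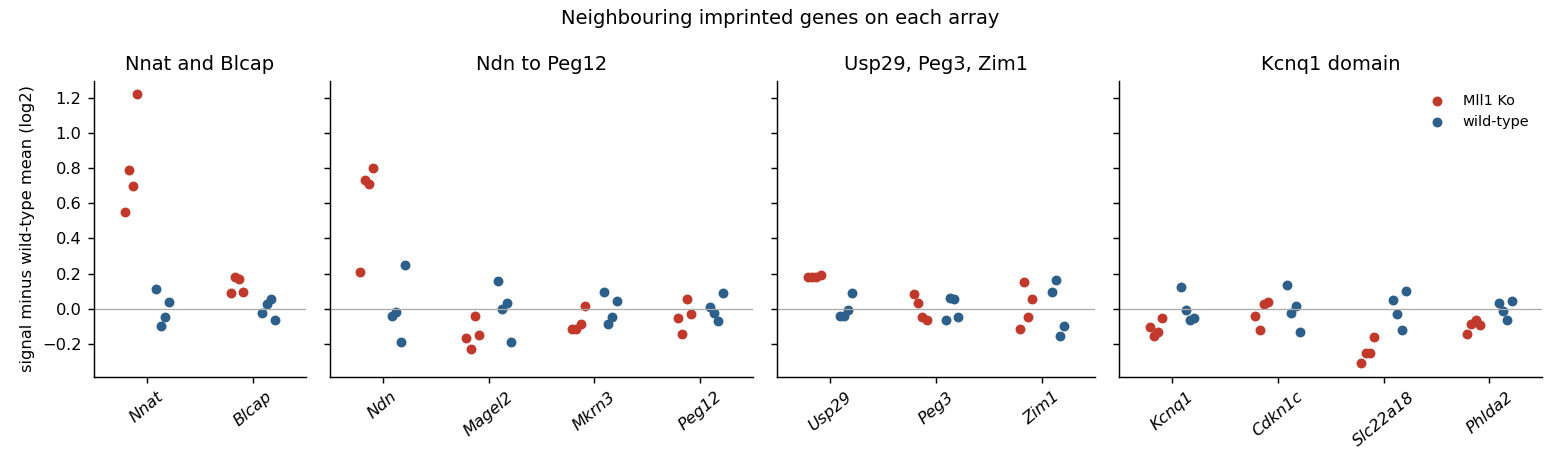
Signal on each Mll1 Ko and wild-type array (log2), less the wild-type mean of the gene, for neighbouring imprinted genes in 4 domains. The Mll1 Ko arrays lie above the wild-type arrays for Nnat and Usp29, and mostly for Ndn, while Magel2, Mkrn3, Peg12, Peg3 and Zim1 overlap between the groups.

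The 32 imprinted genes that did not pass ranged from -0.148 to 0.285 log2, and among them Copg2 (0.285) and Mirg (0.23) differed by more than Usp29, Grb10, Rasgrf1 and H19, with larger errors. Of all 39, 30 lay within 0.15 of 0 (76.9%), as did 70.6% of all genes. Unadjusted p was under 0.05 for 4 of the 32, namely Blcap, Ube3a, Mirg and Sgce. Mirg, a maternally expressed noncoding RNA that hosts microRNAs in the Dlk1-Dio3 domain, averaged 9.02 ± 0.15 in Mll1 Ko and 8.79 ± 0.16 in wild-type (SD, n = 4 and 4), a difference of 0.23 ± 0.0881 (SE, limma, adjusted p = 0.101). Without wild-type array 4 it was 0.291 and passed (adjusted p = 0.047). Its cluster names several genes in the authors' table, as do those of Snrpn and Plagl1, so these 3 signals may be shared. Sgce, which encodes epsilon-sarcoglycan, averaged 10.10 ± 0.07 in Mll1 Ko and 9.96 ± 0.11 in wild-type, a difference of 0.138 ± 0.0627 (adjusted p = 0.15). Peg10, a retrotransposon-derived gene that starts 101 bases from Sgce in the reference gene table, differed by 0.0625, and Mll1 Ko array 4 was high at 9.49, beside 8.90 to 9.18 on the other Mll1 Ko arrays.

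The 6 imprinted genes with the brightest probes among those that did not pass were Snrpn, Impact, Meg3, Gnas, Peg3 and Copg2. Snrpn averaged 12.39 ± 0.05 in Mll1 Ko and 12.41 ± 0.07 in wild-type (SD, n = 4 and 4), a difference of -0.015 ± 0.0524 (SE). Meg3, the long noncoding RNA of the maternal Dlk1-Dio3 domain, averaged 12.08 ± 0.08 in Mll1 Ko and 12.13 ± 0.10 in wild-type, a difference of -0.0475 ± 0.0623. Its paternally expressed neighbours, the Notch-like ligand gene Dlk1 and the thyroid hormone deiodinase gene Dio3, differed by -0.015 and -0.085. For these genes no difference beyond the spread of the arrays was detected. Impact, a regulator of translation under stress that is abundant in neurons, averaged 12.27 ± 0.05 in Mll1 Ko and 12.17 ± 0.06 in wild-type, a difference of 0.0975 ± 0.0493 (limma, adjusted p = 0.187). Gnas, which encodes the stimulatory G protein alpha subunit, averaged 11.39 ± 0.03 in Mll1 Ko and 11.33 ± 0.03 in wild-type, a difference of 0.055 ± 0.0434 (adjusted p = 0.383).

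At the Mest locus 1 wild-type array decided the values. Copg2, a coatomer subunit gene, gave 10.64, 10.70, 10.70 and 10.65 on the Mll1 Ko arrays, against 9.72, 10.56, 10.50 and 10.77 on the wild-type arrays. Mest, a hydrolase-like gene whose 3′ end overlaps Copg2, gave 10.37 to 10.42 on the Mll1 Ko arrays, against 10.92, 10.39, 10.35 and 10.39 on the wild-type arrays. Wild-type array 1 was thus the lowest for Copg2 and the highest for Mest, and the other wild-type arrays lay near the Mll1 Ko arrays. The differences were 0.285 ± 0.171 for Copg2 and -0.113 ± 0.107 for Mest (SE), neither of which passed. Without wild-type array 1 they were 0.0625 and 0.0233. Array 1 also carried the highest wild-type signal of Ttr, the transport protein of the choroid plexus, at 9.35, beside 7.16 to 7.21 on the other wild-type arrays. Ttr was 7.72 on Mll1 Ko array 1 and 6.94 to 7.03 on the other Mll1 Ko arrays, and its part in the Mest values was not tested.

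Among the imprinted genes not yet described, those of the Peg10 domain expressed from the maternal allele were Ppp1r9a (-0.0875), a scaffold protein of synapses, Asb4 (-0.03), a ubiquitin ligase adaptor, and Calcr (-0.122), the calcitonin receptor gene. Asb4 lay below the lower quartile on 8 of 8 arrays and Mkrn3 on 4, so these carry little information. The transcription factor gene Plagl1 differed by 0.005, the receptor gene Igf2r, which clears Igf2, by 0.04, and the potassium channel gene Kcnk9 by 0.04. Commd1, which takes part in copper handling, differed by -0.08, and Zrsr1, a splicing factor relative inside it, by 0.0475. Inpp5f, a phosphoinositide phosphatase gene, differed by 0.0725. For each of these 9 genes the Mll1 Ko and wild-type values overlapped.

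Paternally and maternally expressed genes were then set side by side. The 19 paternally expressed genes had a median difference of 0.005 (range -0.148 to 0.815), with 10 above 0, 8 below 0 and Peg3 at 0. The 16 maternally expressed genes had a median of -0.0388 (range -0.242 to 0.285), with 6 above and 10 below 0. With each array left out in turn the medians were -0.00417 (without Mll1 Ko array 2) to 0.025 (without Mll1 Ko array 1) for paternally expressed genes, and -0.0612 (without Mll1 Ko array 1) to -0.0329 (without wild-type array 1) for maternally expressed genes. The median over all 25048 genes was -0.0325, with 40.9% of genes above 0. The paternally expressed genes held all 5 rises and no fall, that is 26.3% higher where the background was 5.25%, and the maternally expressed genes held both falls and no rise, that is 12.5% lower where the background was 5.72%. These are shares of 5 and 2 genes and do not show that the classes differ. The split also changed with the arrays and the scaling. Without wild-type array 4, the paternally expressed Magel2 passed as lower and the maternally expressed Mirg as higher. Mirg also passed as higher with array weights. After quantile normalization 2 paternally expressed genes were higher and 0 maternally expressed genes were called. Outside the 7 genes called on the deposited values, the ranges of the classes overlapped. At an unadjusted p under 0.05 the paternally expressed genes held 6 higher and 0 lower, and the maternally expressed genes 2 higher and 2 lower, where 12.8% of all genes were higher and 20.4% lower. The classes also differed in the brightness of their probes, which is not a transcript level, with a median signal of 9.24 for paternally and 8.24 for maternally expressed genes.

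Signal level moved with the difference across all genes. In 10 classes of genes by mean signal, the median difference was -0.0975 in the dimmest class and between -0.12 and -0.0775 in the next 4. It was -0.0175 in the sixth, and between 0.03 and 0.0675 in the 4 brightest. Nnat, Ndn and Rasgrf1 fell in the brightest class, in which 14.1% of genes rose and 1.64% fell. Usp29 and Grb10 fell in the class with 9.18% of genes higher and 2.04% lower. H19 fell in a class in which 1.2% of genes rose and 11.3% fell, and Slc22a18 in one with 4.35% higher and 4.31% lower. The class medians lie far below the rises of Nnat (0.815) and Ndn (0.613), while the fall of H19 (-0.18) stands beside a class median of -0.117.

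**Figure D4:**
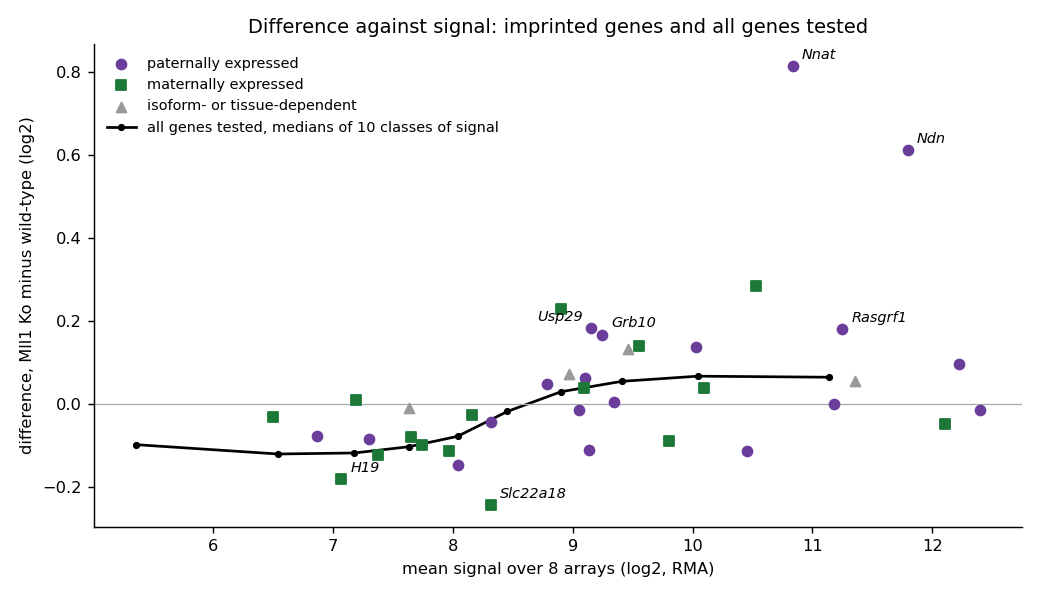
Difference in signal (Mll1 Ko minus wild-type, log2) against mean signal over 8 arrays (log2) for the 39 imprinted genes, by expressed allele; the line joins the median differences of all genes in 10 classes of signal. The line runs from below 0 among dim genes to above 0 among bright ones, and most imprinted genes lie near it.

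The arrays of the groups differed in the spread of their values, and another scaling removed most of the small calls. After quantile normalization of the deposited values, Nnat (0.755, limma adjusted p = 0.00698) and Ndn (0.57, adjusted p = 0.0191) still passed, with a background of 2.95% higher and 1.58% lower over all genes (4.54% in either direction). Usp29 (0.15, adjusted p = 0.102), Grb10 (0.131, 0.0986), Rasgrf1 (0.135, 0.109) and Slc22a18 (-0.208, 0.0694) kept their direction and did not pass. H19 moved the most, to -0.0816 with an adjusted p of 0.438. Among all genes called, rises were 47.9% on the deposited values, 65.1% after quantile normalization, 63.7% after cyclic loess and 72.2% after centring each array on its median.

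**Figure D5:**
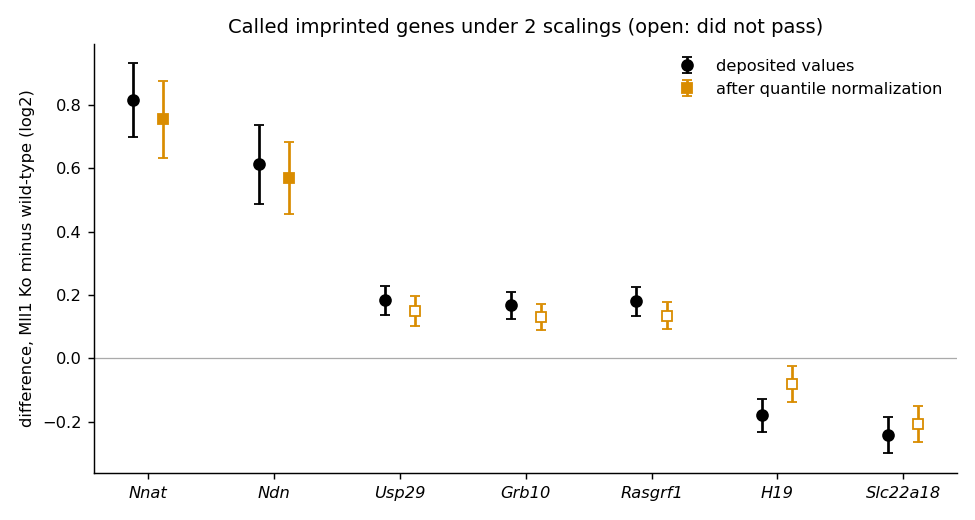
Difference in signal (Mll1 Ko minus wild-type, log2, ± 1 SE from limma) of the 7 imprinted genes that passed on the deposited values, on those values (circles) and after quantile normalization (squares, open where the gene did not pass). Nnat and Ndn changed little with the scaling, and the difference of H19 was -0.0816 after it.

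The authors' deposited table, which tests each cluster on its own, gave an FDR p-value under 0.05 to 4 imprinted genes, where 4.13% of its 28944 clusters had one. In the authors' deposited table these were Grb10 (0.015), Rasgrf1 (0.0251), Usp29 (0.0395) and Nnat (0.0457). Ndn had an FDR p-value of 0.0877 in the authors' deposited table, Slc22a18 0.0706 and H19 0.0784. The linear fold in the authors' deposited table, negative where the knockout is higher, was -1.64 for Nnat and -1.72 for Ndn.

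Several lists of cell type markers describe the tissue on the arrays. In bulk tissue, fewer cells of a type and less RNA per cell cannot be told apart. The background for the counts below is 5.25% of all genes higher, 5.72% lower and 11.0% in either direction (limma). In a list of 8 genes, 0 or 1 call does not stand apart from it. The 8 markers of cortical excitatory neurons were present, with mean levels of 10.58 to 10.72 on the Mll1 Ko arrays and 10.86 to 10.94 on the wild-type arrays. Of these 8, 4 fell and none rose, a larger share of falls than the 5.72% of all genes. Among the 4, Tbr1, a factor of deep-layer neurons, fell by -0.455 ± 0.0599 log2 (SE, limma, adjusted p = 0.00227), Emx1 by -0.242 and Neurod2 by -0.193. The markers that did not pass differed by -0.263 (Neurod6), -0.05 (Nrgn), -0.028 (Slc17a7) and -0.018 (Camk2a). Tbr1 passed with any array left out. Emx1 did not without Mll1 Ko array 1, 2 or 3 or wild-type array 1 or 3 (limma, adjusted p = 0.0571 to 0.0888), and with single arrays left out Neurod2 passed only without wild-type array 4 (otherwise 0.0654 to 0.12). Markers of inhibitory neurons held 1 fall of 8 (Gad1, -0.203, not passed without any Mll1 Ko array or without wild-type array 1 or 2, at adjusted p = 0.0546 to 0.0846), at 10.18 to 10.24 in Mll1 Ko and 10.14 to 10.28 in wild-type. Markers of striatal neurons held 1 rise (Tac1, 0.772) and 1 fall (Adora2a, -0.41) of 8, at 10.36 to 10.61 in Mll1 Ko and 10.32 to 10.54 in wild-type. By limma, 0 markers passed of 8 each for astrocytes, oligodendrocytes, microglia, endothelial and mural cells and leptomeningeal fibroblasts. At an unadjusted p under 0.05 these lists held 0, 2, 2, 0 and 2 genes in that order, beside 12.8% of all genes higher and 20.4% lower. Their part in the values of the imprinted genes was not tested.

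Hypothalamic neurons, which express Nnat, Ndn and Magel2 strongly, could enter a dissection by carry-over. Their 10 markers had mean levels of 7.58 to 7.68 on the Mll1 Ko arrays and 7.71 to 7.84 on the wild-type arrays. Of the 10, 1 fell (Trh, -0.29), beside 5.72% of all genes. The median difference of the 10 was -0.115, close to the -0.1025 of all genes with a mean signal of 7.41 to 7.84. Trh did not pass without any one of the Mll1 Ko arrays or without wild-type array 1 or 4 (limma, adjusted p = 0.0644 to 0.108). Alone among the 10, Pmch, which defines a hypothalamic cell type, lay below the lower quartile on all arrays. Choroid plexus markers had mean levels of 7.18 to 7.32 in Mll1 Ko and 7.31 to 7.67 in wild-type. Of the 8, 1 fell (F5, -0.203), that is 12.5% called where 11.0% of all genes were. At an unadjusted p under 0.05, 3 of the 8 were lower and 0 higher, beside 20.4% and 12.8% of all genes. F5 lay below the lower quartile on all arrays and was -0.105 after quantile normalization (limma, adjusted p = 0.317). With single arrays left out, F5 passed only without wild-type array 4 (otherwise adjusted p = 0.0548 to 0.104 by limma). Leptomeningeal cells, known to express Igf2, had mean marker levels of 8.12 to 8.19 in Mll1 Ko and 8.13 to 8.22 in wild-type, with Lum below the lower quartile. The part of these cells in the values of the imprinted genes was not tested.

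The factors that set and keep imprints were tested as a list of 25, all of which had a row. Of these, 2 rose and 0 fell, that is 8.0% called where 11.0% of all genes were, and the median difference was 0.02. At an unadjusted p under 0.05, 4 of the 25 were higher and 3 lower, beside 12.8% and 20.4% of all genes. Among those that rose, Trim28, a co-repressor that protects methylated imprints, gave 10.11, 10.08, 10.04 and 9.97 on the Mll1 Ko arrays, against 9.77, 9.89, 9.95 and 9.80 on the wild-type arrays. Every Mll1 Ko array was higher than every wild-type array. The difference was 0.198 ± 0.0553 (SE, limma, adjusted p = 0.0432). After quantile normalization Trim28 did not pass (adjusted p = 0.141). With single arrays left out, it passed only without Mll1 Ko array 4 (0.047) or wild-type array 3 (0.0372).

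Of 33 further genes known to be imprinted, 30 were tested, and Kcnq1ot1, Peg13 and Snhg14 were not analysed here. By limma 0 rose and 2 fell, that is 6.67% called against 11.0% of all genes, with a median difference of -0.039. At an unadjusted p under 0.05, 4 of the 30 were higher and 8 lower, beside 12.8% and 20.4% of all genes. Adam23, an adhesion protein of synapses that binds Lgi1, gave 10.70, 10.76, 10.72 and 10.63 on the Mll1 Ko arrays, against 10.89, 11.08, 11.00 and 11.07 on the wild-type arrays. All Mll1 Ko values lay below all wild-type values. Adam23 fell by 0.307 ± 0.0554 log2 (SE, limma, adjusted p = 0.00928) and passed in 20 of 20 other settings. Tfpi2, a protease inhibitor gene next to the Peg10 domain, gave 6.80, 6.92, 6.94 and 6.88 on the Mll1 Ko arrays, against 7.23, 6.98, 7.07 and 7.08 on the wild-type arrays. It differed by -0.205 ± 0.0599 (adjusted p = 0.0491), close to the lower quartile of the arrays, and passed without wild-type array 2 (0.0465) and with no other array left out (0.0565 to 0.118).

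Genes next to the changed imprinted genes by start position in the reference gene table were read as well. Of the symbols tested, 23992 had a row in that table. Mrpl23, a mitochondrial ribosomal protein gene beside H19, averaged 10.87 in Mll1 Ko and 10.57 in wild-type, a rise of 0.3 ± 0.0507 (SE, limma, adjusted p = 0.00673). It lies on the far side of H19 from Igf2 and moved the other way from H19. Mir675, the microRNA that H19 carries, differed by -0.135 (adjusted p = 0.122). Mir184, a microRNA beside Rasgrf1, averaged 6.98 in Mll1 Ko and 7.25 in wild-type, a fall of -0.268 ± 0.0656 (adjusted p = 0.0295), and after quantile normalization it did not pass (-0.169, adjusted p = 0.136). Nor did Mir184 pass without Mll1 Ko array 1, 2 or 3 or wild-type array 1 (limma, adjusted p = 0.052 to 0.0851). Ctnnbl1, the next gene beyond Nnat, differed by 0.155 (adjusted p = 0.128), Aurkc beyond Usp29 by -0.16 (0.117) and Ctsh beyond Rasgrf1 by 0.105 (0.212). The predicted genes Gm32061, whose span includes Ndn (-0.042), and Gm25058 (0.022) and Gm24036 (-0.065) beside Grb10, did not pass. Of these 9 genes that are not among the imprinted genes listed, 2 passed (Mrpl23 and Mir184), where 11.0% of all genes did. Gm32061 and Mir675 are among the 9, although they overlap the imprinted gene and do not flank it.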

How the data were processed

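Total RNA of 8 mice, 4 labelled Mll1 Ko and 4 wild-type, was labelled with the WT PLUS kit and hybridised to Affymetrix arrays, 1 array per mouse, per the labels. The deposited log2 values of 35556 transcript clusters rest on RMA, and the submitters' processing notes also name Affymetrix Expression Console and Transcriptome Analysis Console 3.0, without their roles. The sources used here give no array model, build or annotation. The authors' comparison table covers 28944 clusters with a signed linear fold change (a score here, since its sign marks direction), an FDR p-value and the ANOVA p-value behind it, per the file headers.

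Gene symbols came from that table. Of its clusters, 2108 had no symbol and 27 had a symbol turned into a date, and these were left out. Each of 25048 genes was represented by its brightest cluster (highest mean of 8 arrays). Differences (Mll1 Ko minus wild-type) were fitted with limma 3.58.1 (lmFit, eBayes) in R 4.3.3 with no covariate and no filter, and adjusted by Benjamini-Hochberg over all 25048 genes at 0.05. Exact permutation tests run over the 70 splits of 8 arrays. Arrays give no count depth, so their number limits the precision. Same-numbered arrays did not deviate together (correlations of -0.00651, 0.0436, -0.00247 and 0.00772), so no block was used. In simulated data with 50 of 25048 genes changed at each of 4 sizes, 18% of genes changed by 0.2 log2 were called, 76% at 0.4 and 100% at 0.8, with 10 false calls. The simulated noise was independent between genes and arrays, so these rates hold for that setting only.

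Genes named are Kmt2a, every imprinted gene that passed, the 6 with the lowest unadjusted p and the 6 with the highest signal among the others, locus members, list members that passed and defining cell type markers. Some list genes are counted but not reported here by name. The members, lists, allele classes and tests were chosen with earlier results of these data known. Alternatives were 3 other scalings, exclusion of dim genes, the mean of all clusters, adjustment over all clusters, other variance models, array weights, a replicate block and arrays left out. Leaving out clusters that name several genes was added after seeing the data. Promoters and gene neighbours came from RefSeq tables (GRCm38.p6).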

Additional observations from a re-analysis of the deposited data

Results flagged for a closer look

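Of 112 sets of 4 arrays examined (a gene in a group), 6 held a highest or lowest array far from the other 3, where chance alone flags about 1 in 20. Ndn was 11.70 on Mll1 Ko array 1, beside 12.20 to 12.29 on the other Mll1 Ko arrays. Usp29 was 9.25 on Mll1 Ko array 4 and 9.24 on the other Mll1 Ko arrays, a gap of the last printed digit. Impact was 12.34 on Mll1 Ko array 2, beside 12.24 to 12.25 on the other Mll1 Ko arrays. Mest was 10.92 on wild-type array 1, beside 10.35 to 10.39 on the other wild-type arrays. Ttr was 7.72 on Mll1 Ko array 1, beside 6.94 to 7.03 on the other Mll1 Ko arrays, and 9.35 on wild-type array 1, beside 7.16 to 7.21 on the other wild-type arrays. No cause of these was tested.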

How the results depend on the processing

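No called imprinted gene turned its direction in any of the 20 alternatives (19 for H19, which was left out with the dim genes), and the calls of the small differences came and went. The count of imprinted genes higher in Mll1 Ko, 5 on the deposited values, was 2 after quantile normalization, 2 after cyclic loess, 1 with adjustment over all clusters, 3 with wild-type arrays 1 and 4 both removed, and 1 to 6 with each array left out. The count lower, 2 on the deposited values, was 0 after quantile normalization, 0 after cyclic loess, 0 with adjustment over all clusters and 0 in an unmoderated test. It was 1 after centring each array, 1 with dim genes left out, 1 with trend and robust variance, 1 with wild-type arrays 1 and 4 both removed, and 0 to 3 with each array left out. With the replicate number as a block, which the labels do not make a pairing, the counts were 2 higher and 1 lower. The median of paternally expressed genes (0.005) was 0.0425 after centring and 0.0475 without clusters that name several genes, an alternative added after seeing the data. The median of maternally expressed genes (-0.0388) was -0.0109 after quantile normalization, -0.00498 after cyclic loess and -0.00125 after centring. Over all genes, 1316 rose and 1432 fell on the deposited values, 739 and 397 after quantile normalization, 803 and 458 after cyclic loess, 1981 and 764 after centring, 545 and 371 with adjustment over all clusters, 607 and 423 unmoderated, 861 and 806 with the replicate block, 1807 and 2627 with array weights, and 435 to 1609 and 330 to 1912 with each array left out. Some genes have an expressed allele that depends on tissue or isoform. Without Grb10 the paternal median was 0.0025, and without Copg2, Igf2r and Kcnq1 the maternal median was -0.0475. Ube3a was kept in the maternal median. The cause of these changes was not tested. In simulated data 18% of genes changed by 0.2 log2 were called. That simulation changed far fewer genes than the 2748 called on these arrays, which makes its adjustment stricter. The 18% therefore does not carry over, and how many changes of the size of the 5 small calls were missed was not measured.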
